A study of Sus scrofa with 15 samples.

Results

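The genes described here encode 8 transcription factors of the intestinal epithelium: HNF4A, CDX2, KLF4, KLF5, GATA4, GATA6, ELF3 and HOXB13. They were chosen by name, as the rows whose NCBI Gene number maps to these pig symbols, and make up 8 of the 19197 genes listed in either of the study's tables. All 8 have a row among the 19000 genes of the knockdown table, and 7 among the 17001 genes of the overexpression table, where GATA4 has no row. A filter of at least 1 FPKM (fragments per kilobase of transcript, scaled to the library's mapped fragments, so a level per gene length) in at least 3 libraries of a table left 6 of them for testing in each table. CDX2 and GATA4 did not pass it.

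The epithelium of the gut is renewed from crypt stem cells, and a small network of DNA-binding factors holds its identity while cells divide, leave the crypt and mature. The nuclear receptor HNF4A and the homeobox factor CDX2 act together on enterocyte genes, GATA4 and GATA6 pattern the bowel along its length, and the zinc finger factors KLF4 and KLF5 are known in mouse for opposite places on the crypt axis, KLF5 in dividing cells and KLF4 in cells that have left the cycle. ELF3 is an epithelium-specific ETS factor needed in mouse for normal villus maturation. HOXB13 lies at the posterior end of the HOXB cluster and is known from the hindgut and the prostate.

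RNA was sequenced from IPEC-J2, a cell line that grew out of the jejunal epithelium of a newborn piglet and was not transformed, after delivery of lentiviral vectors acting on miR-133 or miR-143. Of the 15 libraries, 9 form the knockdown table, with 3 each of Lv133KD (vector for knockdown of miR-133), Lv143KD (knockdown vector named for miR-143) and their control vector Lv3NC. The other 6 form the overexpression table, with 3 each of OV143 (overexpression of miR-143) and its control vector Lv20NC. All groups, controls included, carried a lentiviral vector. For the vector labelled Lv143KD the design text names miR-133 as target, so its target is unsettled here and the label is followed. The labels do not tell if a group's 3 libraries are 3 cultures or 1, and p-values therefore cover the spread between libraries, which can be technical. No row of the tables holds a miRNA, and the action of the vectors on their miRNAs was not checked.

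The FPKM values of a library summed to 486086 to 520630 in the knockdown table and to 518578 to 558042 in the overexpression table, except for OV143 replicate 2 at 662022. Read totals are not kept in FPKM, so the depth behind each value is unknown. The 7 listed epithelial markers averaged at least 1 FPKM in every group, among them EPCAM at 300.0 FPKM in the knockdown table and 596 FPKM in the overexpression table. The defining marker of leukocytes, PTPRC, was listed at 0 in all 9 knockdown libraries. The fibroblast matrix gene DCN stayed at or under 0.04 FPKM in all 15 libraries. Other listed markers were present. VIM, which cultured epithelial lines also express, averaged 1308 and 1569 FPKM in the knockdown and overexpression tables, and COL1A1 3.62 and 2.06 FPKM. The leukocyte markers LCP1 and CD14 averaged 13.4 and 1.59 FPKM in the knockdown table. In Lv133KD, Lv143KD and Lv3NC the endothelial markers CDH5 and PECAM1 averaged 9.06, 9.31 and 9.44 FPKM and 1.57, 1.71 and 1.83 FPKM. The smooth muscle marker DES averaged 1.45, 1.39 and 1.68 FPKM in these groups.

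The 8 factors ran from 114.38 FPKM to 0 in these cells, with KLF5, ELF3 and KLF4 at the top and CDX2 and GATA4 at or near 0. Tables were normalised separately, so levels of the same gene are given per table and not tested across them. KLF5 (Gene 100038005, chromosome 11, 45370009 to 45386673 in the RefSeq annotation of Sscrofa11.1) ran over the 9 knockdown libraries from 39.99 to 84.91 FPKM with a median of 69.9, and over the 6 overexpression libraries from 32.94 to 96.39 FPKM. ELF3 (Gene 100524949, chromosome 10, 24237852 to 24242266) ran from 50.03 to 95.17 FPKM with a median of 72.06 in the knockdown table, and from 57.44 to 104.69 FPKM in the overexpression table. KLF4 (Gene 595111, chromosome 1, 248604817 to 248609574) ran from 19.13 to 114.38 FPKM with a median of 73.68 in the knockdown table, and from 14.72 to 52.9 FPKM in the overexpression table. In the knockdown table the ranges of these 3 genes overlap and no order stands among them, since each was the highest member in 3 libraries. In the overexpression table ELF3 led in 4 libraries and KLF5 in 2, while KLF4 was below both in all 6 and its range lay under that of ELF3.

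Below them came HNF4A, GATA6 and HOXB13, in that order in both tables and with no overlap between the ranges of neighbours. HNF4A (Gene 733636, chromosome 17, 46783772 to 46847505) ran from 10.68 to 13.13 FPKM in the knockdown table and from 8.7 to 10.26 FPKM in the overexpression table. It is overlapped by the lncRNA LOC102159476, which has no row in either table. GATA6 (Gene 397600, chromosome 6, 107282709 to 107314725) ran from 4.7 to 8.32 FPKM in the knockdown table and from 5.94 to 8.0 FPKM in the overexpression table, and the coding locus LOC100525229 that overlaps it stayed at or under 0.12 FPKM. Whether reads were counted by strand is not given in the sources used here, so reads of overlapping loci cannot be told apart. HOXB13 (Gene 100522893, chromosome 12, 24948307 to 24950661) ran from 1.43 to 2.52 FPKM in the knockdown table and from 0.85 to 1.94 FPKM in the overexpression table, close to the filter.

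CDX2 (Gene 100127132, chromosome 11, 5339727 to 5346081) was listed at 0 in 4 of the 9 knockdown libraries and reached at most 0.06 FPKM in the others. In the overexpression table it was listed at 0 in 4 of 6 libraries, with a highest value of 0.07 FPKM. GATA4 (Gene 397555, chromosome 14, 14858470 to 14938156), the factor that in mouse keeps jejunal identity, was listed at 0 in 3 of the 9 knockdown libraries and reached at most 0.04 FPKM. The transcripts of both factors were thus at or near the lowest listed value in a line labelled as jejunal.

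**Figure D1:**
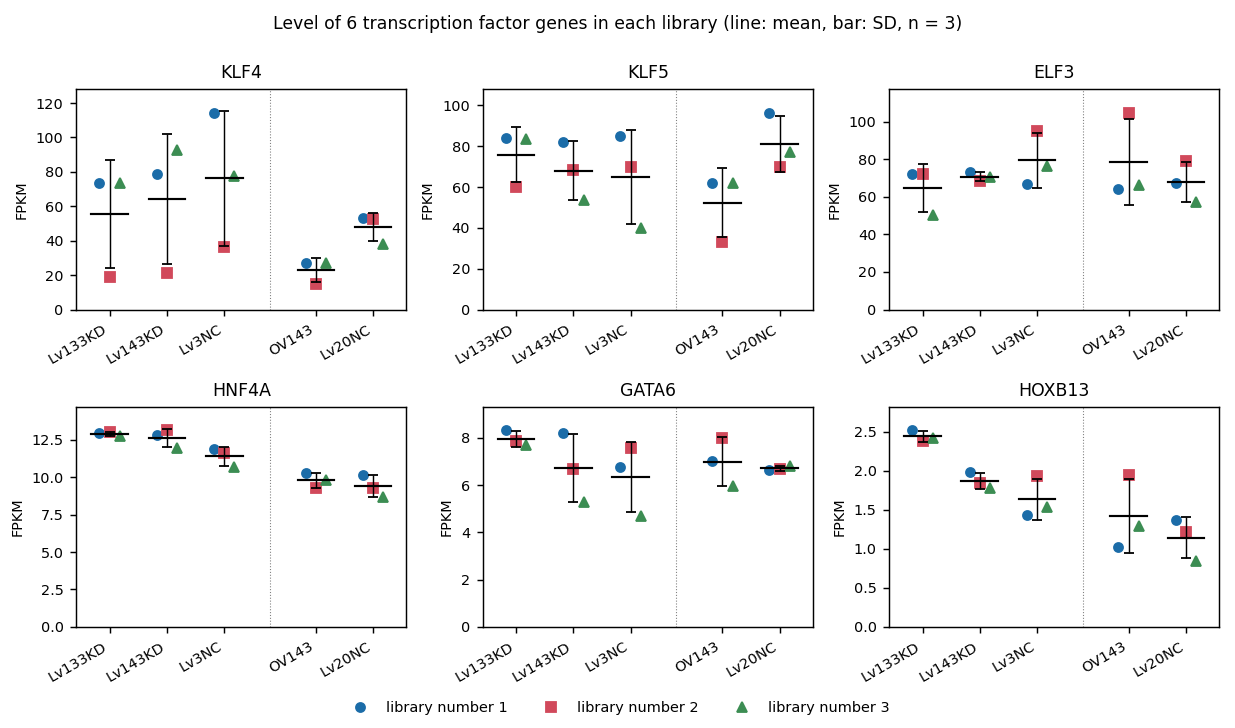
Level in FPKM (vertical axes, each starting at 0) of the 6 factors that passed the filter, in the 5 vector groups along the horizontal axis; each point is 1 library, coloured by its number, with the group mean as a line and the SD as a bar (n = 3). The dotted line parts the separately normalised tables. KLF4 in the knockdown libraries numbered 2 lies at 19.13, 21.37 and 36.33 FPKM, under all other knockdown libraries, and the 3 OV143 libraries lie under the 3 Lv20NC libraries for KLF4 and KLF5.

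The members differed widely in how steady they were between libraries. HNF4A was among the steadier genes, with a coefficient of variation of 6.7% over the 9 knockdown libraries and of 6.22% over the 6 overexpression libraries, where the median tested gene had 13.8% and 14.7%. Only 9.78% and 8.57% of tested genes varied less. KLF4 stood at the other end, at 50.0% and 43.5%, with 98.9% and 99.0% of tested genes varying less. These values pool the vector groups, so a difference between groups adds to them, as for KLF4 and KLF5 in the overexpression table. KLF5 had 22.8% and 31.3%, ELF3 16.2% and 23.2%, HOXB13 19.6% and 29.3%, and GATA6 18.2% and 9.84% in the knockdown and overexpression tables.

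Other factors of the same network showed a similar split between present and near 0. Of 21 other listed absorptive-lineage and endodermal factors with a row in the knockdown table, 11 passed the filter. HES1, a repressor downstream of Notch, averaged 103 FPKM in the knockdown table and 109 FPKM in the overexpression table. The vitamin D receptor VDR averaged 13.3 and 14.7 FPKM. HNF4G, the close relative of HNF4A in enterocytes, averaged 1.71 and 1.29 FPKM, and CDX1, the relative of CDX2, averaged 0.0489 FPKM in the knockdown table. Among factors of secretory cells, ATOH1 averaged 0.0144 FPKM and SPDEF 0.0433 FPKM in the knockdown table, and NEUROG3 was listed at 0 there.

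Genes that HNF4A or CDX2 are known to act on were also uneven. Of the 25 listed with a row in the knockdown table, 10 passed the filter, and of the 23 with a row in the overexpression table, 10 did so. The glucose transporter gene SLC2A2 averaged 164 FPKM in the knockdown table and 12.4 FPKM in the overexpression table, and SLC5A1, the sodium-coupled glucose transporter, 1.73 and 18.2 FPKM. DPP4, a brush-border peptidase, averaged 17.3 and 26.3 FPKM. The fatty acid binding gene FABP1 averaged 0.0378 and 0.07 FPKM, the lactase gene LCT 0.117 and 0.0483 FPKM, and KRT20 was listed at 0 throughout the knockdown table.

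**Figure D2:**
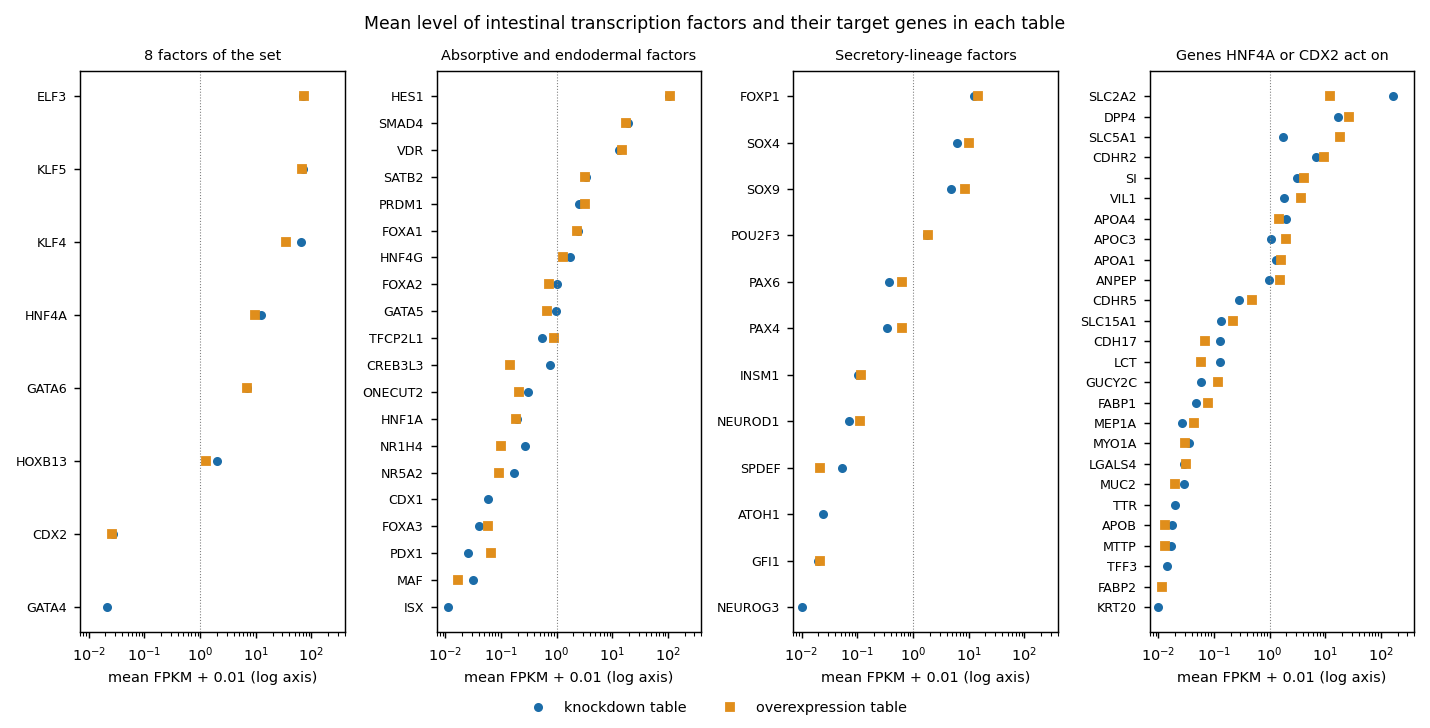
Mean FPKM + 0.01 on a log axis, over the 9 knockdown libraries (circles) and the 6 overexpression libraries (squares), for the 8 factors, other absorptive-lineage and endodermal factors, secretory-lineage factors and genes that HNF4A or CDX2 are known to act on. The dotted line marks 1 FPKM. CDX2 and GATA4 sit far left of the line, beside CDX1, ATOH1, FABP1 and LCT, while HES1 sits right of HNF4A.

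Overexpression of miR-143 was compared with its control to ask which genes move when this miRNA is raised. KLF4 and KLF5 were lower in all 3 OV143 libraries than in any Lv20NC library, KLF4 at 22.8 ± 7.04 FPKM in OV143 and 48.0 ± 8.35 FPKM in Lv20NC, and KLF5 at 52.3 ± 16.8 FPKM in OV143 and 81.1 ± 13.8 FPKM in Lv20NC (SD, n = 3 each). These are 2 of the 6 tested factors, where 12.9% of all genes tested were lower in OV143 without overlap. Both passed the test when the replicate number was a block in the fit and neither passed without it. The remaining 4 tested factors overlapped between the groups. The test was limma on log2(FPKM + 1) over 11506 genes, and calls need a Benjamini-Hochberg adjusted p under 0.05. Without the block 0 genes of the table were called (0% of those tested), although 1304 were under 0.05 before adjustment. The check of the numbers allows the block, although it hardly tells numbers 1 and 3 apart in this table. With the block 223 genes (1.94%) were called, 149 of them (1.29% of those tested) lower and 74 higher in OV143. Of the 6 tested factors, 2 were among the lower.

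KLF4 had 26.94, 14.72 and 26.87 FPKM in OV143 replicates 1 to 3, against 52.9, 52.66 and 38.32 FPKM in Lv20NC. The highest OV143 library thus lies under the lowest control, and replicate 2 is the lowest of the 3 OV143 libraries. The log2 fold change was -1.07, with a standard error of 0.25, a 95% interval from -1.65 to -0.50 and an adjusted p of 0.21 without the block. With the block it was -1.07, with a standard error of 0.19, an interval from -1.50 to -0.64 and an adjusted p of 0.024. All 3 same-numbered pairs were lower in OV143, by log2 differences of -0.95, -1.77 and -0.50, and 0.122% of the 11506 tested genes had a lower fold change.

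KLF5 had 62.11, 32.94 and 61.98 FPKM in OV143, against 96.39, 69.64 and 77.32 FPKM in Lv20NC. Again no OV143 library reached the control range, and OV143 replicate 2 was the lowest. Its log2 fold change was -0.67, with a standard error of 0.25, an interval from -1.26 to -0.07 and an adjusted p of 0.389 without the block, and a standard error of 0.13, an interval from -0.97 to -0.37 and an adjusted p of 0.0378 with it. The pairs differed by -0.63, -1.06 and -0.31 on the log2 scale. The ratio of KLF4 to KLF5 was 0.43, 0.45 and 0.43 in OV143 and 0.55, 0.76 and 0.50 in Lv20NC, so it was lower in each OV143 library than in any control.

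OV143 replicate 2 carried part of the size of both differences. Without it, KLF4 differed by -0.80 (adjusted p = 0.00618) and KLF5 by -0.37 (adjusted p = 0.0968), and 511 genes were called without the block. With the block and the libraries numbered 2 left out, KLF4 differed by -0.72 and KLF5 by -0.47. In such a fit 1 residual degree of freedom is left. Both genes were called in each of the 3 fits that left out 1 number. Each of these fits also called more genes of the table than the blocked fit with all libraries, so these calls add little support. The counts of all genes called are given in the section on the processing.

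**Figure D3:**
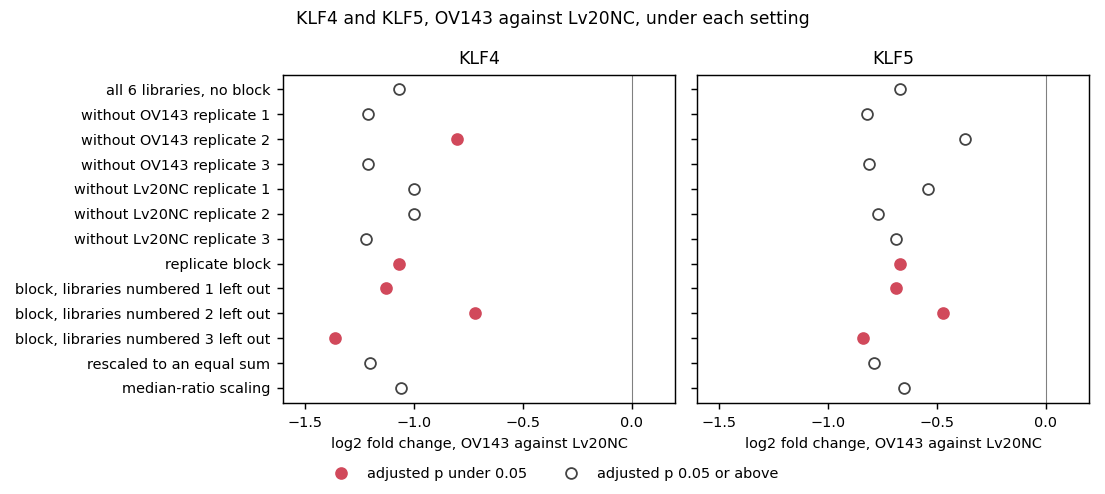
Log2 fold change of KLF4 and KLF5 in OV143 against Lv20NC (horizontal axes) under the settings drawn (rows), filled where the adjusted p was under 0.05. The fits with another pseudocount, no filter, no variance trend, or the block with median-ratio scaling are not drawn. Every value lies below 0, from -1.36 to -0.72 for KLF4 and from -0.84 to -0.37 for KLF5, and the filled points are those with the replicate block, plus KLF4 without OV143 replicate 2.

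Summed levels of cell type markers overlapped between OV143 and Lv20NC for 4 of 5 marker lists. The 7 epithelial markers summed to 2315 to 3407 FPKM in OV143 and 2446 to 2743 FPKM in Lv20NC, the 6 fibroblast markers with a row to 1433 to 1695 FPKM in OV143 and 1518 to 1679 FPKM in Lv20NC. The 6 leukocyte markers with a row summed to 19.52 to 21.95 FPKM in OV143 and 20.9 to 22.18 FPKM in Lv20NC, and the 5 endothelial markers to 5.31 to 6.86 FPKM in OV143 and 6.82 to 7.1 FPKM in Lv20NC. The 6 smooth muscle markers summed to 3.93 to 6.59 FPKM in OV143 and 3.45 to 3.72 FPKM in Lv20NC. The sum of the smooth muscle markers was thus higher in every OV143 library. DES, the 1 of them that passed the filter, averaged 3.28 FPKM in OV143 and 2.14 FPKM in Lv20NC and was higher in every OV143 library without passing the test (adjusted p = 0.325 without and 0.12 with the block), while MYH11 averaged 0.0317 FPKM over the table. Single markers differed where the sums overlapped. Of the 7 epithelial markers, EPCAM was higher in every OV143 library (mean 653 against 538 FPKM) and CDH1 lower in every one (204 against 250 FPKM). The endothelial marker CDH5 was lower in every OV143 library (3.96 against 4.6 FPKM), and none of the 3 passed the test. VIM, at 1562 FPKM in OV143 and 1576 FPKM in Lv20NC, made up nearly all of the fibroblast sum. The part of these markers in the KLF result was not tested. In bulk RNA, fewer cells of a type and less RNA per cell cannot be told apart.

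The other tested members gave small differences with intervals that include 0. HNF4A had 10.26, 9.3 and 9.79 FPKM in OV143, against 10.15, 9.28 and 8.7 FPKM in Lv20NC, a log2 fold change of 0.06 with an interval from -0.18 to 0.29. Its groups overlap almost fully. GATA6 had 7.03, 8.0 and 5.94 FPKM in OV143, against 6.62, 6.68 and 6.8 FPKM in Lv20NC, a log2 fold change of 0.05 (-0.23 to 0.32). The signs of both turn when every library is rescaled to the same sum, to -0.05 for HNF4A and -0.06 for GATA6, a scaling that moves the median of all genes to -0.13, from -0.02 on the deposited scale.

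ELF3 had 64.31, 104.69 and 66.26 FPKM in OV143, against 67.26, 79.03 and 57.44 FPKM in Lv20NC, a log2 fold change of 0.18 (-0.31 to 0.67). HOXB13 had 1.02, 1.94 and 1.29 FPKM in OV143, against 1.37, 1.21 and 0.85 FPKM in Lv20NC, a log2 fold change of 0.16 (-0.22 to 0.54). For both genes the high value of OV143 replicate 2 stands above all controls while the other OV143 libraries lie among or near them. Changes within these intervals were not detectable with 3 libraries a group.

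The relatives of KLF4 and KLF5 shared their direction. All 12 tested genes of the KLF family, these 2 included, had a fold change below 0 in OV143, with a median of -0.43, where the median of all tested genes was -0.02 and 6235 of 11506 were below 0. In 7 of the 12 no OV143 library reached the Lv20NC range, as in 12.9% of all genes tested. With the block 5 were called, all lower: KLF2, KLF4, KLF5, KLF7 and KLF10. Without the block none of the 12 was called, and without OV143 replicate 2 it was 4, those 5 less KLF5. The family also leaned lower in the knockdown table. Against Lv3NC, 10 of 13 tested KLF genes were below 0 in Lv133KD (median -0.16), and 10 of 13 in Lv143KD (median -0.07). Of all 11645 genes tested there, 5559 and 6493 were below 0. No KLF gene was called in either comparison, with or without the block.

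KLF2, known from endothelium and T cells, had 4.28, 5.87 and 3.72 FPKM in OV143, against 8.37, 9.15 and 6.72 FPKM in Lv20NC (log2 difference -0.70, adjusted p = 0.0152 with the block). KLF7 had 21.02, 10.42 and 20.45 FPKM in OV143, against 32.59, 28.33 and 29.83 FPKM in Lv20NC (-0.83, adjusted p = 0.0277 with the block). KLF10, a gene induced by TGF-beta, had 118.98, 67.63 and 115.9 FPKM in OV143, against 166.78, 167.59 and 156.46 FPKM in Lv20NC (-0.74, adjusted p = 0.0468 with the block). OV143 replicate 2 was the lowest of its group for KLF7 and KLF10, as for KLF4 and KLF5, and the highest of its group for KLF2. KLF6 averaged 74.0 FPKM in OV143 and 90.1 FPKM in Lv20NC with overlapping libraries, and did not pass.

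**Figure D4:**
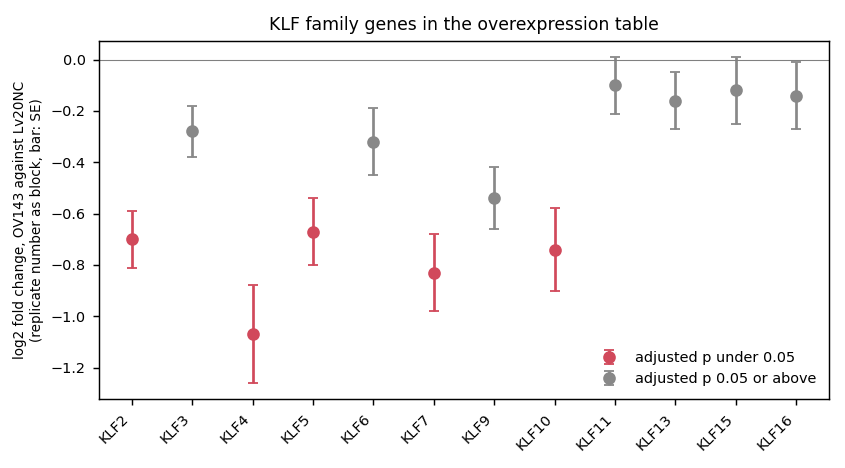
Log2 fold change in OV143 against Lv20NC with its standard error (vertical axis, replicate number as a block) of the 12 KLF genes that passed the filter in the overexpression table (horizontal axis). All lie below 0, and the 5 called ones (KLF2, KLF4, KLF5, KLF7 and KLF10) run from -1.07 to -0.67.

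Members of the other lists were called singly, but groups without overlap were common there too. Lower in OV143 without overlap were 5 of 8 tested absorptive-lineage and endodermal factors, 4 of 8 epithelial identity factors and 1 of 4 secretory-lineage factors. Of 20 HOX genes, 5 were higher and 2 lower without overlap. Among all tested genes 12.9% were lower and 8.96% higher without overlap. Of 8 tested absorptive-lineage and endodermal factors beside the members, 7 were below 0 in OV143 (median -0.25) and 1 was called with the block: VDR had 11.71, 10.28 and 10.14 FPKM in OV143, against 21.48, 20.54 and 14.07 FPKM in Lv20NC, with a log2 fold change of -0.73 and an adjusted p of 0.0194. None was called without the block. Of the GATA family, GATA6 alone passed the filter in the overexpression table, and GATA2 and GATA5 averaged 0.46 and 0.67 FPKM there. Of 20 tested HOX genes, HOXB13 included, 12 were above 0 and 8 below (median 0.09), and 1 was called with the block. This was HOXB6, a gene further anterior in the HOXB cluster, with 53.04, 64.43 and 48.17 FPKM in OV143, against 31.36, 33.64 and 36.65 FPKM in Lv20NC (log2 difference 0.68, adjusted p = 0.0218 with the block).

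Among the 10 tested genes that HNF4A or CDX2 are known to act on, 7 were above 0 in OV143 and 3 below (median 0.03), and 1 was called with the block. ANPEP, the brush-border aminopeptidase N, had 2.03, 2.74 and 1.99 FPKM in OV143, against 0.84, 0.9 and 0.79 FPKM in Lv20NC (log2 difference 0.81, adjusted p = 0.00808 with the block). Since all 3 Lv20NC libraries lay under 1 FPKM, it passed the filter only through the OV143 libraries, where it is high, and its call is no independent support. The filter dropped it in each fit with the block that left out 1 number. None of the 4 secretory-lineage and 8 epithelial identity factors tested was called, with medians of -0.24 and -0.22 in OV143.

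**Figure D5:**
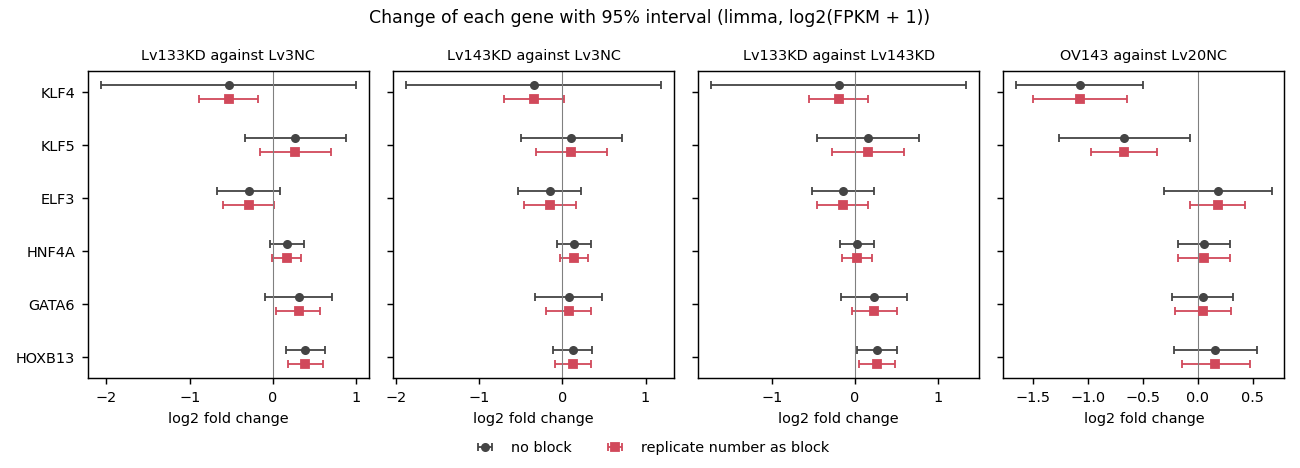
Log2 fold change with its 95% interval (horizontal axes, limma on log2(FPKM + 1)) of the 6 tested factors in the 4 comparisons, without a block (circles) and with the replicate number as a block (squares). In OV143 the intervals of KLF4 and KLF5 lie below 0 in both fits, while in the knockdown comparisons the interval of KLF4 without the block reaches from -2.07 to 1.00 for Lv133KD against Lv3NC.

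Knockdown with Lv133KD was set against Lv3NC to ask which genes move when miR-133 is lowered. None of the 6 tested factors was called in this comparison, with or without the block. Of 11645 genes, 2 (0.0172%) were called without the block and 30 (0.258%) with it, and 380 and 1922 had an unadjusted p under 0.05. HOXB13, GATA6 and HNF4A were higher in every Lv133KD library than in any Lv3NC library, 3 of 6 members where 4.69% of all tested genes were so, and none of them passed the test.

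HOXB13 had 2.52, 2.38 and 2.42 FPKM in Lv133KD, 1.98, 1.84 and 1.78 FPKM in Lv143KD, and 1.43, 1.93 and 1.54 FPKM in Lv3NC. The 3 Lv133KD libraries lay close together and above all 6 others. The log2 fold change against Lv3NC was 0.39, with an interval from 0.16 to 0.62, and its adjusted p was 0.926 without and 0.166 with the block. At these low values the log2(FPKM + 1) scale understates the change, and the ratio of the group means was 1.49. Of the 17 HOX genes tested there, HOXB13 included, 15 were above 0 in Lv133KD (median 0.14, against 0.01 for all genes). Of all 11645 tested genes, 6086 were above 0. HOXB13 and HOXD8 were the 2 HOX genes higher without overlap, as were 4.69% of all tested genes, and no HOX gene was called.

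GATA6 had 8.32, 7.85 and 7.68 FPKM in Lv133KD, 8.18, 6.67 and 5.3 FPKM in Lv143KD, and 6.75, 7.56 and 4.7 FPKM in Lv3NC. The low value of Lv3NC replicate 3 makes up much of the gap, with pair differences of 0.27, 0.05 and 0.61 on the log2 scale between Lv133KD and Lv3NC. The log2 fold change was 0.31 (-0.10 to 0.71), with an adjusted p of 0.926 without and 0.272 with the block. Without Lv3NC replicate 3 it was 0.14. HNF4A had 12.92, 12.99 and 12.72 FPKM in Lv133KD, 12.82, 13.13 and 11.97 FPKM in Lv143KD, and 11.85, 11.59 and 10.68 FPKM in Lv3NC. Every library of either knockdown vector lay above every control library, by log2 fold changes of 0.17 (-0.03 to 0.37) in Lv133KD and 0.14 (-0.06 to 0.34) in Lv143KD. Both comparisons use the same 3 controls, 1.56% of all tested genes were higher in both without overlap, and both intervals include 0.

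In the knockdown table KLF4 was lowest in the library numbered 2 of each group. It had 73.39, 19.13 and 73.68 FPKM in Lv133KD, 78.95, 21.37 and 92.46 FPKM in Lv143KD, and 114.38, 36.33 and 77.86 FPKM in Lv3NC. KLF2, KLF7 and KLF10 were also lowest in the library numbered 2 of each of the 3 groups, at 1.79, 15.52 and 91.74 FPKM in Lv133KD, 1.88, 16.09 and 96.67 FPKM in Lv143KD, and 2.5, 19.6 and 125.42 FPKM in Lv3NC. The same held for KLF3 and, outside the family, for VDR and HOXD8, but not for KLF6. Over all tested genes the libraries numbered 2 deviated together from their group means (r from 0.701 to 0.852). The share of all genes lowest in these libraries was not counted.

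Against Lv3NC, KLF4 gave a log2 fold change of -0.53 in Lv133KD, with a standard error of 0.68 and an interval from -2.07 to 1.00 without the block, and a standard error of 0.16, an interval from -0.89 to -0.18 and an adjusted p of 0.218 with it. In Lv143KD the log2 fold change was -0.34 (-1.88 to 1.19 without the block, -0.70 to 0.02 and an adjusted p of 0.887 with it). All 3 pairs were lower in Lv133KD, by -0.63, -0.89 and -0.08, and 2 of 3 in Lv143KD, by -0.53 and -0.74, with the third at 0.25. KLF4 was called in 1 of the 20 alternative settings of each comparison, the fit with the block that left out the libraries numbered 3. There it was lower, at -0.76 (adjusted p = 0.0181) in Lv133KD and -0.63 (adjusted p = 0.0269) in Lv143KD. The counts of all genes called in such fits are given in the section on the processing. The difference of KLF4 between the overexpression and knockdown tables was not tested.

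KLF5 had 84.04, 60.22 and 83.32 FPKM in Lv133KD, 82.06, 68.49 and 53.4 FPKM in Lv143KD, and 84.91, 69.9 and 39.99 FPKM in Lv3NC. The groups overlap widely. In Lv133KD the low Lv3NC replicate 3 sets the sign: the log2 fold change was 0.27 (-0.34 to 0.88), and -0.04 without that library. In Lv143KD it was 0.11 (-0.50 to 0.72), and -0.20 without that library. The sign in Lv143KD turned in 3 of the 20 alternative settings, not only where that library was left out. ELF3 had 72.06, 72.11 and 50.03 FPKM in Lv133KD, 72.94, 68.51 and 70.61 FPKM in Lv143KD, and 66.67, 95.17 and 76.27 FPKM in Lv3NC. Its groups overlap too, with log2 fold changes of -0.29 (-0.67 to 0.08) in Lv133KD and -0.15 (-0.53 to 0.22) in Lv143KD.

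Lv143KD against Lv3NC also gave no call among the 6 factors, with or without the block. Of 11645 genes, 2 (0.0172%) were called without the block and 20 (0.172%) with it, and 208 and 669 had an unadjusted p under 0.05. HNF4A was the 1 member of 6 whose groups did not overlap, higher in Lv143KD, as were 2.11% of all tested genes. GATA6 differed by 0.08 (-0.33 to 0.48) and HOXB13 by 0.13 (-0.11 to 0.36) on the log2 scale, with overlapping groups. SLC2A2, the highest of the listed genes that HNF4A is known to act on, averaged 240.0 FPKM in Lv143KD, 116 FPKM in Lv133KD and 136 FPKM in Lv3NC, and did not pass in Lv143KD against Lv3NC (log2 fold change 0.75, adjusted p = 1 without and 0.421 with the block).

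The 2 knockdown vectors were also compared with each other. No gene of the table was called between Lv133KD and Lv143KD, with or without the block (0% of 11645), while 15 and 209 genes had an unadjusted p under 0.05. HOXB13 was the 1 member of 6 with groups that did not overlap, higher in Lv133KD, as were 2.11% of all tested genes. It averaged 2.44 ± 0.0721 FPKM in Lv133KD and 1.87 ± 0.103 FPKM in Lv143KD (SD, n = 3 each), a log2 fold change of 0.26 with an interval from 0.03 to 0.50 and an adjusted p of 1 without and 0.91 with the block. The other 5 members lay between -0.19 (KLF4) and 0.23 (GATA6) on the log2 scale, with intervals that include 0.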

How the data were processed

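Per the file headers, the authors deposited gene levels as FPKM, in 2 tables: 9 knockdown libraries and 6 overexpression libraries. The build is Sscrofa11.1, per the submitters' processing notes. Aligner, counter and strand use were not given in the sources used here. Genes were matched by NCBI Gene number to symbols and coordinates of the RefSeq table of that build. No column of per-sample values was left unused, and groups follow the labels.

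The members and the gene lists were chosen with earlier results of these data known. All 8 members are named whatever their values; other genes are named where they passed the test, had the highest means of a list or are relatives of a member, and the 2 genes most alike each member by Pearson r over the knockdown libraries are named in the closing section. The result of 1 listed gene is not reported here.

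Each table was fitted whole with limma 3.58.1 in R 4.3.3 on log2(FPKM + 1), with a trended empirical Bayes variance. Tests were two-sided, and Benjamini-Hochberg adjustment ran over the genes at or above 1 FPKM in 3 or more libraries. This scale understates the change of low genes. The 3 knockdown groups shared one fit. The fit was first tried on simulated data whose noise was independent and equal for all genes, with no effect of the library number. That trial does not measure power or error in these libraries. Intervals are 95% intervals of the fit, and they measure the spread between 3 libraries a group.

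Libraries carry numbers 1 to 3 in each group, and what a number marks is not given in the labels. The deviations of same-numbered libraries from their group means gave correlations between 0.27 and 0.852 for 9 knockdown pairs and between 0.229 and 0.716 for 3 overexpression pairs, above the limit of 0.1 for treating them as pairs. Pairs with different numbers ran from -0.87 to 0.379 in the knockdown table and from -0.676 to 0.54 in the overexpression table. Some of these also passed that limit, so it does not set same-numbered libraries apart in every case. The fit with the number as a block is given where it changes a call. Alternatives were another pseudocount, no filter, other scalings, no variance trend, only the groups compared, the block, and leaving out each library or number; the block with median-ratio scaling was added after seeing the data.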

Additional observations from a re-analysis of the deposited data

How the results depend on the processing

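Over 456 recomputed fold changes of the 6 tested factors, 416 kept direction and side of the threshold, 13 passed it newly and 27 changed sign. No factor was called in the main fits (all libraries, no block), so no call could be lost. Where a call came or went, the cause was not tested. The replicate block took the genes called to 30 in Lv133KD against Lv3NC, 20 in Lv143KD against Lv3NC and 223 in OV143 against Lv20NC, against 2, 2 and 0 without it, and the members called in OV143 to 2 (KLF4 and KLF5), against 0. With the block and median-ratio scaling the counts were 41, 29 and 232 genes and 2 members in OV143. Without the block, the 2 genes of Lv133KD became 1 with no filter or with median-ratio scaling and 0 with no variance trend or with only the 2 groups, and those of Lv143KD became 1 with no filter and 0 with no trend or with only the 2 groups.

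Leaving out 1 library without the block gave 0 genes in both knockdown comparisons and 0 to 511 in OV143, with 0 to 1 members called there. Over these fits, KLF4 ran from -0.99 to 0.10 and KLF5 from -0.04 to 0.50 in Lv133KD against Lv3NC. In Lv143KD against Lv3NC, KLF4 ran from -0.79 to 0.31, KLF5 from -0.20 to 0.33 and GATA6 from -0.09 to 0.21. Between Lv133KD and Lv143KD, HNF4A ran from -0.01 to 0.05, KLF4 from -0.84 to 0.44 and ELF3 from -0.23 to 0.03. In OV143, GATA6 ran from -0.04 to 0.14 and ELF3 from -0.04 to 0.30.

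With the block and the libraries numbered 1, 2 or 3 left out, 0, 14 and 72 genes were called in Lv133KD against Lv3NC, 1 to 60 in Lv143KD against Lv3NC, and 683, 1454 and 278 in OV143, where 1 residual degree of freedom is left. Members called were 0 to 1 in both knockdown comparisons and 2 in each OV143 fit. Signs turned in these fits for KLF5 in Lv133KD (-0.11 to 0.51), for KLF5 (-0.04 to 0.19), GATA6 (-0.01 to 0.19) and ELF3 (-0.29 to 0.01) in Lv143KD, for HNF4A (-0.00 to 0.05), KLF5 (-0.07 to 0.33) and ELF3 (-0.25 to 0.03) between the knockdown vectors, and for GATA6 (-0.05 to 0.15) in OV143. HNF4A between the knockdown vectors was -0.01 under median-ratio scaling, with and without the block, and rescaling to equal sums gave -0.05 for HNF4A and -0.06 for GATA6 in OV143. Small differences are limited by 3 libraries a group and unknown depth.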

Other observations

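For each tested factor, the 2 genes with the most similar level over the 9 knockdown libraries were sought by Pearson r of log2(FPKM + 1) among 11141 genes that passed the filter in both tables. These correlations are descriptions: the libraries share numbers and groups, and with so many genes compared a high r is easily found. For KLF4 they were SLC1A4, a neutral amino acid transporter gene (r = 0.996), and PPP1R3C, a glycogen-targeting phosphatase subunit gene (r = 0.995), and over the 6 overexpression libraries r was 0.972 and 0.961. SLC1A4 ran from 5.25 to 48.35 FPKM in the knockdown table, and from 5.37 to 25.61 FPKM in the overexpression table. For KLF5 they were EREG, the EGF receptor ligand epiregulin (0.985, and 0.961 over the overexpression libraries), and SPIN1 (0.983 and 0.554). EREG ran from 28.52 to 90.74 FPKM in the knockdown table and from 38.95 to 171.67 FPKM in the overexpression table.

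All these genes were picked by their r over the knockdown libraries, which favours a lower r over the overexpression libraries. It was lower there for every gene named for KLF4 and KLF5, and for those of the other factors except RPL28. For HNF4A the 2 genes were MTMR9 (0.978 over the knockdown libraries and 0.160 over the overexpression libraries) and ERC1 (0.961 and 0.224). For GATA6 they were CARM1 (0.989 and 0.558) and LOC110258925 (0.987 and 0.391), and for HOXB13 CPNE2 (0.938 and 0.513) and IDS (0.926 and 0.438). For ELF3 they were ECM1 (0.943 and 0.690) and the ribosomal protein gene RPL28 (0.942 and 0.960).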
